A study of Mus musculus with 24 samples.

Results

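Both macrophage populations of the injured muscle, Mgl1high and Mgl1low, were compared on day 4 after notexin. Mgl1, a galactose-binding C-type lectin encoded by Clec10a, was the antigen that parted them in the cell sorter, within cells that were F4/80high and Ly6Clow. The 4 Mgl1high arrays (subset 4) and the 4 Mgl1low arrays (subset 3) were chosen by their labels, 8 of the 24 arrays of the series. The other 16 arrays hold the Ly6Chigh monocytes (subset 1) and F4/80low Ly6Clow cells (subset 2) of the same day and both macrophage populations of untreated muscle, with 4 arrays each.

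Each array holds amplified RNA from a pool of 3 adult mice of 1 strain, and the 4 strains stand as the replicates. The strains were Cx3cr1-/-, Ccl2-/-, Cx3cr1-/- Ccl2-/- and wild type (WT), all on a C57Bl/6 background. Cx3cr1 encodes the fractalkine receptor and Ccl2 a chemokine that draws monocytes, and both were disrupted in every cell of the mice that carry the allele. Notexin, a myotoxic phospholipase from snake venom, was injected into the tibialis anterior muscle, and muscle and fascia were digested together before the sort. A strain has no replicate of its own within a population, so that p-values rest on the spread over 4 strains of different genotype. In the fit of the 16 day-4 arrays that spread was pooled over all 4 populations. It is not the spread of the Mgl1high to Mgl1low difference alone. No source used here gives the sex of the mice in a pool. Where 4 values follow each other, they run in the order WT, Cx3cr1-/-, Ccl2-/-, Cx3cr1-/- Ccl2-/-.

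Macrophages of a healing muscle come from blood monocytes that enter after the injury and from cells that lived in the tissue before it. Resident macrophages of muscle and fascia are known for scavenger and lectin receptors, such as Lyve1, Folr2 and Cd163, that take up debris, hyaluronan and haemoglobin. Macrophages that have ingested dying fibres are known for a set of genes of lipid binding and lysosomal digestion, such as Gpnmb, Fabp5 and Trem2.

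Values are log2 intensities after background correction and quantile normalization, in which 1 unit is a doubling, and a level can be compared between arrays for 1 probe but not between probes. A gene was called when its difference, Mgl1high minus Mgl1low, had a Benjamini-Hochberg adjusted p under 0.05 in limma with strain as a block. Probes above background at a detection p under 0.05 were 9369 to 17846 per array in the Mgl1high arrays and 16668 to 18289 in the Mgl1low arrays. The 9369 belong to the Mgl1high array of Cx3cr1-/- mice, and 3 of the 16 day-4 arrays stayed under 12000, the other two being F4/80low Ly6Clow arrays that enter the estimate of the spread. Cx3cr1 had 6.58, 6.77, 5.80 and 5.35 in the Mgl1high arrays, against 6.64, 5.32, 7.04 and 4.96 in the Mgl1low arrays, so that the Mgl1high array labelled Cx3cr1-/- was not below WT and is named here as labelled. The probe of Ccl2, at 9.16, 8.69, 9.16 and 9.03 in Mgl1high and at 7.63, 8.04, 8.67 and 8.64 in Mgl1low macrophages, was not placed relative to the disrupted part and checks no label.

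The RNA was first set against the gate. Clec10a, the gene of Mgl1, had log2 intensities of 13.18, 12.68, 13.87 and 13.40 in Mgl1high macrophages and of 12.23, 11.86, 11.51 and 12.36 in Mgl1low macrophages. Every Mgl1high array lay above every Mgl1low array, and since the antigen was sorted on, this is a check and not a result. The difference of 1.29 (standard error 0.44) had an adjusted p of 0.132, and of 0.00661 without the 3 weak arrays. Adgre1, which encodes F4/80, averaged 11.22 ± 0.28 and 11.64 ± 0.16 (SD, n = 4 each) in Mgl1high and Mgl1low macrophages, with an adjusted p of 0.533. Ly6c1 averaged 5.82 ± 0.55 and 5.90 ± 0.15, with an adjusted p of 0.898. Of the 4 genes given as marks of the populations, Folr2 and Lyve1 were higher, Fabp5 was lower and Ctsl was not called.

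Of 8214 genes tested, 52 were higher in Mgl1high than in Mgl1low macrophages (0.633%) and 59 were lower (0.718%). All 111 had 1 direction in 4 of 4 strains. In 103 of them the 4 Mgl1high arrays did not overlap the 4 Mgl1low arrays, which held for 14.3% of all genes tested. The median difference over all genes was −0.22, so that a typical gene read slightly lower in the Mgl1high arrays. By strain the median was −0.06, −0.52, −0.02 and −0.24, widest in Cx3cr1-/-, the strain of the weak Mgl1high array. It was −0.09 without the 3 weak arrays. The differences of the called genes ran between 1.09 and 3.91 log2 units for the higher genes and between 1.04 and 3.14 in size for the lower.

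The higher and the lower genes did not rest on the arrays equally. Of the 52 higher genes, 50 were above background in all 4 Mgl1high arrays and 41 in all 4 Mgl1low arrays. All 59 lower genes were above background in the 4 Mgl1low arrays, but 14 of them were so in all 4 Mgl1high arrays. In 39 of the 59 the lowest Mgl1high value was in the weak Cx3cr1-/- array, against 10 of the 52 higher genes. The 2 lowest Mgl1high values were those of Cx3cr1-/- and Cx3cr1-/- Ccl2-/- in 39 of the 59 and 0 of the 52. The latter array was not among the weak ones, and the shares over all genes tested were not counted. Without the weak Cx3cr1-/- array alone 24 genes were higher and 5 lower, among them 22 of the 52 and 3 of the 59. Without the 2 weak F4/80low Ly6Clow arrays alone 340 were higher and 583 lower, and without all 3 weak arrays 275 were higher (3.35%) and 347 lower (4.22%), each time with all 111 among them. Leaving out the Ccl2-/- strain left 10 higher and 0 lower genes, leaving out the Cx3cr1-/- Ccl2-/- strain 9 and 0, leaving out Cx3cr1-/- 28 and 11, and leaving out WT 41 and 28, while without the strain block 21 were higher and 5 lower. In the fits that left 0 lower genes, limma gave 2525 and 1921 probes with an unadjusted p under 0.05. With the 8 Mgl1high and Mgl1low arrays alone and strain as a block, 34 of 8861 genes were higher and 16 lower. Among these were 25 of the 52 and 12 of the 59. A set of 8 genes was called with each strain left out in turn: C4a, C4b, Cbr2, Ccl8, Cd209d, Chp2, Ednrb and Mgl2, all higher.

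Complement component C4 was the transcript with the widest gap. C4b, part of the cascade that tags surfaces for uptake, had 10.57, 10.58, 11.12 and 10.77 in Mgl1high macrophages, against 6.97, 7.07, 6.74 and 7.72 in Mgl1low macrophages. The 4 Mgl1high arrays lay close to each other and far above the highest Mgl1low array. It was 12.4-fold higher (difference 3.64, standard error 0.30, adjusted p = 2.48e-05). C4a, its near-identical copy, was 15-fold higher (3.91, 0.25, adjusted p = 3.29e-06), and the probes of the 2 genes can share RNA, so they are not separate results. C6, a component of the terminal complex, was higher by 1.89 (0.38, adjusted p = 0.0294) and was above background in 1 of 4 Mgl1low arrays, with a second probe at 0.79 that was not called. Of 15 complement genes tested these, C4b and C6, were the 2 called higher, and 1 was lower, Itgax, which encodes the CD11c chain of a complement receptor. The C1q genes C1qa, C1qb and C1qc had differences of 0.61, −0.32 and −0.15, none called.

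Genes of resident macrophages were the list with the most higher calls. Of 21 tested, 10 were higher and none lower (16 and none without the weak arrays), with a median difference of 1.63 against −0.22 over all genes. The list median stayed above that of all genes under each scaling, by 1.85 here, 2.10 with median scaling in place of quantile normalization and 1.89 without the weak arrays. The list was drawn up with earlier results of these data known, so its count is a description.

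The lectins led this list. Cd209d, a mouse relative of DC-SIGN, had 8.40, 9.27, 9.06 and 9.27 in Mgl1high macrophages, against 4.92, 4.91, 5.35 and 5.29 in Mgl1low macrophages, where 2 of the 4 arrays were above background. Mgl2, the lectin most closely related to Mgl1, had 9.81, 9.78, 9.61 and 11.04 in Mgl1high macrophages, against 6.66, 6.30, 5.81 and 6.51 in Mgl1low macrophages. Neither gene overlapped between the populations, and the Cx3cr1-/- Ccl2-/- array stood above the other Mgl1high arrays for Mgl2. Cd209d was 14.8-fold higher (difference 3.88, standard error 0.36, adjusted p = 7.29e-05) and Mgl2 13.4-fold (3.74, 0.35, adjusted p = 9.19e-05), and a second Mgl2 probe gave 3.04. Since Mgl2 resembles the sorted antigen in sequence, a shared signal of its probes with Clec10a was not tested. Of 12 C-type lectin genes tested these 2 were called, both higher. Mrc1, the mannose receptor CD206, averaged 11.22 ± 0.28 and 10.06 ± 0.18 and came close to the threshold (difference 1.16, adjusted p = 0.0536). Clec4e, a receptor for mycobacterial and damage-derived lipids, had a difference of −1.49 and an adjusted p of 0.0773.

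Scavenger and uptake receptors of the resident list followed. Lyve1, the hyaluronan receptor, had 8.03, 7.54, 9.59 and 9.74 in Mgl1high macrophages, against 5.14, 5.10, 6.09 and 7.36 in Mgl1low macrophages. In both populations the 2 strains without Ccl2 read higher than the other two, while the gap within a strain ran between 2.38 and 3.51. Lyve1 was 7.0-fold higher (difference 2.81, standard error 0.54, adjusted p = 0.024). Folr2, a folate receptor, had 9.68, 10.25, 9.78 and 10.52 in Mgl1high macrophages, against 8.44, 8.32, 8.78 and 8.81 in Mgl1low macrophages. The populations did not overlap, and Folr2 was well above background in both, 2.77-fold apart (1.47, 0.30, adjusted p = 0.0341). Cd163, the haemoglobin scavenger receptor, averaged 12.63 ± 0.44 and 10.25 ± 0.71 at its brighter probe, with an adjusted p of 0.136 (0.0251 without the weak arrays), and its second probe was called, with a difference of 3.53. Timd4, a receptor for phosphatidylserine, had a difference of 1.49 with an adjusted p of 0.0609, and Marco one of 1.76 with 0.0849.

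Ednrb, the endothelin B receptor, had 10.05, 9.74, 10.91 and 10.48 in Mgl1high macrophages, against 6.94, 6.39, 7.06 and 8.0 in Mgl1low macrophages, and was 9.16-fold higher (3.20, 0.33, adjusted p = 1.97e-04). Gas6 makes the bridge between phosphatidylserine on dying cells and the receptors Axl and Mertk. It had 9.83, 10.07, 10.38 and 11.18 in Mgl1high macrophages, against 8.04, 8.24, 7.78 and 8.60 in Mgl1low macrophages, and was 4.59-fold higher (2.20, 0.29, adjusted p = 0.0023). Both genes kept the populations apart without overlap. Cbr2, a carbonyl reductase, was 7.19-fold higher, and Fcgrt, the receptor that recycles IgG, 3.10-fold (adjusted p = 0.048). F13a1, the A chain of coagulation factor XIII, which the rule for named genes did not select and which was picked after its values were seen, was higher by 2.27 (0.34, adjusted p = 0.0077). Of the 11 resident genes that were not called, Selenop, Pf4 and Igf1 had differences of 0.11, 0.33 and 0.26.

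**Figure D1:**
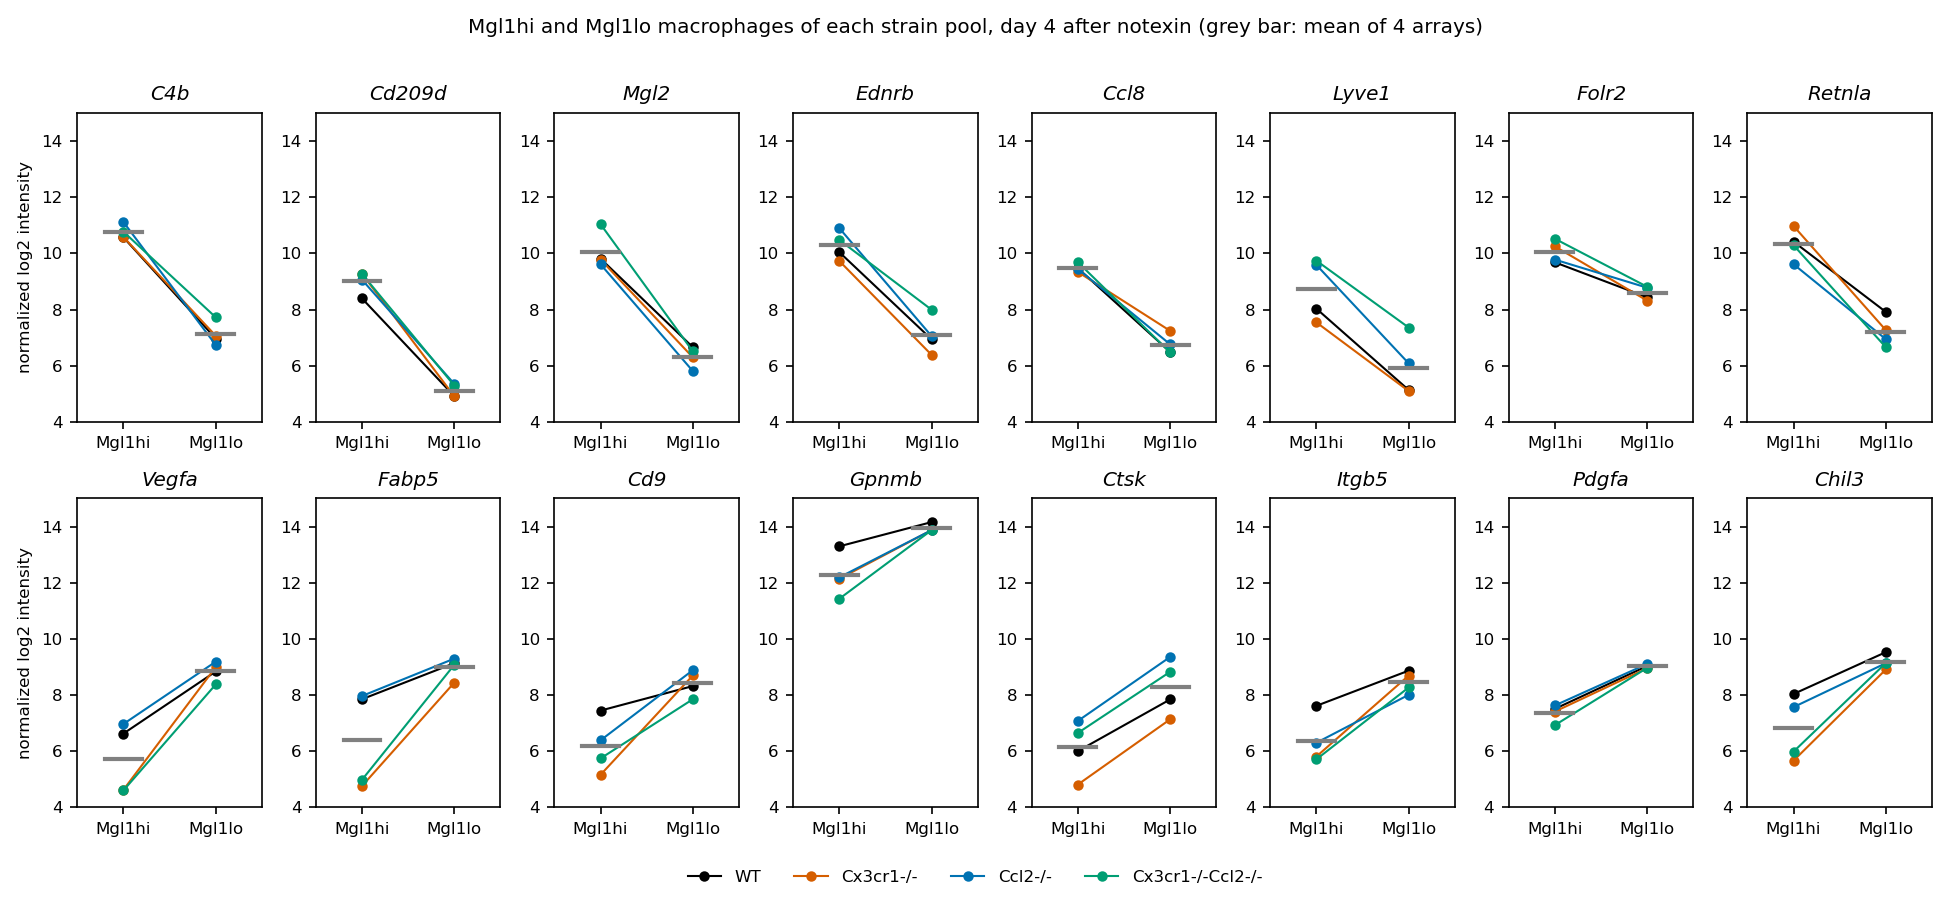
Log2 intensity of 16 genes in Mgl1high (left) and Mgl1low (right) macrophages on day 4, with a line per strain and a grey bar at the mean of the 4 arrays. The top row holds called genes that were higher, with lines that all fall to the right, and the bottom row called genes that were lower, where the Mgl1high points of Vegfa and Fabp5 spread over more than 2 units and the Mgl1low points lie close together.

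Chemokines and products of type 2 activation split. Ccl8, a ligand that draws monocytes and T cells, had 9.48, 9.34, 9.45 and 9.69 in Mgl1high macrophages, against 6.49, 7.24, 6.76 and 6.47 in Mgl1low macrophages. The Mgl1high values were even over the 4 strains and did not overlap the Mgl1low values, and the gene was 6.71-fold higher (2.75, 0.25, adjusted p = 7.29e-05). Ccl24, an eotaxin, averaged 7.34 ± 0.37 and 5.09 ± 0.18, with 2 of the 4 Mgl1low arrays above background, and was higher by 2.25 (0.34, adjusted p = 0.0077). Of 16 chemokine genes tested these 2 were higher and none lower. Ccl7, Ccl12 and Ccl2 had differences of 1.30, 1.04 and 0.76 that were not called. A second, dimmer probe of Ccl7 was called, with a difference of 2.20 (limma, adjusted p = 0.0493).

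Retnla, a secreted protein induced by interleukin-4, had 10.42, 10.98, 9.62 and 10.29 in Mgl1high macrophages, against 7.92, 7.27, 6.95 and 6.66 in Mgl1low macrophages. It did not overlap and was 8.75-fold higher (3.13, 0.69, adjusted p = 0.0435, and 0.091 without the strain block). Chil3, a secreted chitinase-like protein often listed beside it, went the other way. It had 8.04, 5.66, 7.57 and 5.99 in Mgl1high macrophages, against 9.53, 8.91, 9.14 and 9.14 in Mgl1low macrophages, and was 5.15-fold lower (−2.36, 0.39, adjusted p = 0.0129). Another probe of Chil3, near background in both populations, showed no such gap (0.01). Of 12 genes of the type 2 list, 2 were thus higher, Retnla and Ccl24, and 1 lower. Arg1 was above background in 1 of 4 Mgl1high and 3 of 4 Mgl1low arrays, with a difference of −0.01.

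Further higher genes lay outside these lists. Cp, the ferroxidase ceruloplasmin, was the 1 called gene of 22 for heme and iron, at 7.23, 8.14, 7.75 and 7.67 in Mgl1high macrophages and 5.35, 6.09, 4.98 and 5.12 in Mgl1low macrophages (2.31, 0.37, adjusted p = 0.0117). Plac8, a small cysteine-rich protein that marks monocytes, had 7.43, 9.47, 8.05 and 8.77, against 5.42, 5.65, 6.37 and 5.78 in Mgl1low macrophages. It did not overlap (2.62, 0.35, adjusted p = 0.00261) and was the only higher gene among 17 of the monocyte list, of which Chil3 was the lower. Chp2, a calcineurin B homologue, was 6.90-fold higher, Sult1a1, a sulfotransferase, 5.72-fold, and Nme7, of the nucleoside diphosphate kinase family, 5.33-fold with 2 of 3 tested probes called. The predicted gene Gm16367 was higher by 2.58 with an adjusted p of 0.0478, and its Mgl1high values of 6.91, 10.26, 7.04 and 9.25 were the most uneven of the 15 genes with the largest rise. Lifr, a receptor chain for leukaemia inhibitory factor, Fgfr1, a fibroblast growth factor receptor, and Alox5, the 5-lipoxygenase, were picked after their values were seen and were higher by 2.15, 2.02 and 2.20.

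Vegfa headed the genes that were lower. This angiogenic factor had 6.63, 4.63, 6.97 and 4.61 in Mgl1high macrophages, against 8.84, 9.0, 9.19 and 8.38 in Mgl1low macrophages. It was above background in the WT and Ccl2-/- Mgl1high arrays and not in the other two, and the populations did not overlap. The fall was 8.84-fold (−3.14, 0.59, adjusted p = 0.024, and 0.0805 without the strain block), and a second probe gave −2.05. Pdgfa, a mitogen for mesenchymal cells, was more even, at 7.51, 7.41, 7.63 and 6.93 in Mgl1high macrophages and 9.04, 8.96, 9.11 and 8.97 in Mgl1low macrophages. It was above background in all 8 arrays, 3.13-fold lower (−1.65, 0.26, adjusted p = 0.0117). Hgf, which activates muscle stem cells, was lower by 1.59 on the log2 scale (0.30, adjusted p = 0.024) and above background in 2 of 4 Mgl1high arrays, while a dim second probe gave −0.11. Of 15 growth factor genes for muscle repair these 3 were lower and none higher. Igf1 averaged 11.02 ± 0.44 and 10.76 ± 0.25, with a difference of 0.26 (standard error 0.55) that was not called, and Hbegf had a difference of 1.54 with an adjusted p of 0.0638.

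Genes of lipid-associated macrophages were lower or uncalled. Of 21 tested, 6 were lower and none higher (8 and none without the weak arrays), with a median of −0.76, and the list stayed below all genes by 0.54 here and by 0.65 with median scaling. Gpnmb, a glycoprotein of phagocytes that clear debris, had 13.30, 12.14, 12.19 and 11.43 in Mgl1high macrophages, against 14.16, 13.87, 13.87 and 13.87 in Mgl1low macrophages. The last 3 of these share 1 normalized value. It was bright in all 8 arrays and did not overlap, 3.21-fold lower (−1.68, 0.34, adjusted p = 0.0333), and 3 of its 4 probes were called. Fabp5, a fatty acid binding protein, had 7.85, 4.76, 7.97 and 4.99 in Mgl1high macrophages, against 9.14, 8.45, 9.30 and 9.08 in Mgl1low macrophages. Like Vegfa it was not above background in the Cx3cr1-/- and Cx3cr1-/- Ccl2-/- Mgl1high arrays (−2.60, 0.52, adjusted p = 0.029). Cd9, a tetraspanin, Syngr1, a vesicle protein, Itgax and Ctsk were the other four called, 4.77-fold, 5.91-fold, 2.98-fold and 4.45-fold lower. Itgax overlapped between the populations. Trem2, the lipid-sensing receptor of this set, averaged 9.44 ± 0.61 and 10.37 ± 0.35, with a difference of −0.93 and an adjusted p of 0.258. Apoe, the apolipoprotein that carries cholesterol out of macrophages, averaged 11.80 ± 0.54 and 12.10 ± 0.45, a difference of −0.31 (standard error 0.36). Of 14 LXR and cholesterol efflux genes and 12 sterol synthesis genes none was called by limma, with 2 higher and 4 lower, and 0 higher and 3 lower, at an unadjusted p under 0.05.

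The lysosomal genes that were called encode cathepsins. Of 36 lysosomal genes tested, 2 were lower, Ctsk and Ctss, and none higher (4 and none without the weak arrays), with a median of −0.34 that lay 0.12 below all genes. Cathepsin S, encoded by Ctss, trims the invariant chain of MHC class II molecules, cathepsin K degrades collagen, and cathepsin L, encoded by Ctsl, is a general lysosomal protease. The stretches around the RefSeq transcription start sites of these 3 genes, 250 bases before to 50 after (build GRCm38.p6, each on the strand of its gene), are shown for the E-box CACGTG, the core of the element read by the lysosomal regulators TFEB and MITF. It is in capitals where it occurs. Ctsl lies at chr13:64370471-64370770 on the minus strand, Ctsk at chr3:95498960-95499259 and Ctss at chr3:95526536-95526835, both on the plus strand.
Ctsl: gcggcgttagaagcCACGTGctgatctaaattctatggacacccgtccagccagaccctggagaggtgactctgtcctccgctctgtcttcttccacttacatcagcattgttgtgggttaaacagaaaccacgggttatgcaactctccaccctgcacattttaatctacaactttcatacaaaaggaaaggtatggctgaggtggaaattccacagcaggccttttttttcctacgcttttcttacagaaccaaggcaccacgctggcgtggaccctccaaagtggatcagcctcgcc
Ctsk: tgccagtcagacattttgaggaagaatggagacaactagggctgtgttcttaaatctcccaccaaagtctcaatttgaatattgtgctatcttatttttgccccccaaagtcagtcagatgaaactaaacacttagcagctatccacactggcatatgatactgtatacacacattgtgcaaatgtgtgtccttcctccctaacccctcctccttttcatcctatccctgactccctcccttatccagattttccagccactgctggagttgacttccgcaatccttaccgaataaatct
Ctss: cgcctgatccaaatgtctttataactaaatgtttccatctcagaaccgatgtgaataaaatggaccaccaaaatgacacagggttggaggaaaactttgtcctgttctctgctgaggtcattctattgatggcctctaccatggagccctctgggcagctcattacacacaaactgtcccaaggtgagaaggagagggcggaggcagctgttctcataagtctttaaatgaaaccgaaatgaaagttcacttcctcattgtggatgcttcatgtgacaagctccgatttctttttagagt
The motif, which reads the same on both strands, stands at −236 from the start in Ctsl and does not occur in these windows of Ctsk and Ctss. Of 32 lysosomal genes with a window 10 held it (31.2%), against 8.09% of all genes with a window of this length. Of the 9 tested genes with it none was lower, and of 20 without it 2 were, with medians of −0.39 and −0.27. A match in letters is a description and not a bound site.

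Ctsk had 6.00, 4.81, 7.08 and 6.65 in Mgl1high macrophages, against 7.84, 7.14, 9.36 and 8.83 in Mgl1low macrophages. Both populations read higher in the strains without Ccl2, and the gap within a strain was between −2.32 and −1.84 (−2.16, 0.41, adjusted p = 0.024). Ctss was bright throughout, at 11.60, 11.00, 10.98 and 10.77 in Mgl1high macrophages and 12.66, 12.14, 12.21 and 11.93 in Mgl1low macrophages. It did not overlap and was 2.21-fold lower with a gap of −1.23 to −1.06 over the strains (−1.15, 0.23, adjusted p = 0.027). Ctsl averaged 7.62 ± 0.44 and 8.38 ± 0.38, with a difference of −0.76 and an adjusted p of 0.158, and Ctsb, the cathepsin B gene, had −0.52 and 0.196. Ctss was also the lower gene among 13 for MHC class II presentation, in which H2-Eb1 had a difference of 1.82 with an adjusted p of 0.0596.

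Integrin genes held 4 of the lower calls. Of 12 integrin subunits tested these were the lower ones and none was higher (5 and none without the weak arrays), with a median of −0.88, which was 0.67 below all genes here, 0.64 below with median scaling and 0.45 below without the weak arrays, where it was −0.54. Itgb5, a partner of the alpha v chain, had 7.62, 5.81, 6.30 and 5.71 in Mgl1high macrophages, against 8.87, 8.69, 8.01 and 8.27 in Mgl1low macrophages. It did not overlap and was 4.29-fold lower (−2.10, 0.36, adjusted p = 0.0166). Itgav, the alpha v chain itself, which binds apoptotic cells through bridging proteins, had 7.49, 7.03, 6.81 and 6.40, against 8.05, 8.58, 8.60 and 8.55 in Mgl1low macrophages. It was lower by 1.51 on the log2 scale (0.35, adjusted p = 0.0493), and its other 3 tested probes, all dimmer, were not called, at −1.10 to −0.25. Itga6, a laminin receptor chain, was 3.53-fold lower and above background in 2 of 4 Mgl1high arrays, and Itgax 2.98-fold. Of 19 genes of apoptotic cell uptake, Itgb5 and Itgav were the 2 lower and Gas6 the 1 higher. Itgam, the CD11b chain, had a difference of 1.21 with an adjusted p of 0.194. Parvg, a parvin that links integrins to actin, was 5.35-fold lower, Arhgap24, a GTPase activating protein, 3.99-fold and Abi3, an adaptor of the actin-branching WAVE complex, 6.31-fold, though the Mgl1high and Mgl1low values of Abi3 overlapped. A dimmer tested probe of Arhgap24 gave a difference of 0.24, of the other sign, and was not called.

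Other lower genes were single members of their lists. Mmp14, a membrane-bound collagenase and the 1 called gene of 14 matrix proteases and inhibitors, had 8.34, 7.99, 7.80 and 5.73 in Mgl1high macrophages, against 9.46, 9.58, 9.61 and 9.06 in Mgl1low macrophages (−1.96, 0.39, adjusted p = 0.029). The Cx3cr1-/- Ccl2-/- array was the low one. Ptgs2, the inducible cyclooxygenase and the 1 called gene of 20 in the NF-kB inflammatory list, averaged 7.30 ± 0.18 and 8.37 ± 0.29 and was lower by 1.08 on the log2 scale (0.25, adjusted p = 0.049). Of 21 hypoxia and glycolysis genes Vegfa was the 1 lower and none was higher (5 and none without the weak arrays), and Slc2a1, the glucose transporter, had −1.86 with an adjusted p of 0.0764. Dusp4, a phosphatase of MAP kinases, Slc6a8, the creatine transporter, Stra6l, a retinol carrier receptor, and Smim3, a small membrane protein, were 3.97-fold, 3.76-fold, 3.71-fold and 4.69-fold lower. Dimmer tested probes of Dusp4 gave differences of −0.70 and −1.04 that were not called. Tgfbr1, a receptor chain for TGF-beta, and Csf1, the macrophage growth factor, were picked after their values were seen and were lower by 1.72 and 1.33 on the log2 scale (adjusted p = 0.0108 and 0.0333). Jag1, a Notch ligand picked the same way, averaged 4.74 ± 0.32 in Mgl1high macrophages, where no array was above background, and 6.47 ± 0.81 in Mgl1low macrophages, at least 1.91-fold lower against the lowest signals above background.

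The remaining lists held no called gene. None was called by limma among 31 myeloid transcription factors, 21 cell cycle genes, 26 interferon response genes, 48 genes of the respiratory chain, 23 immediate early and heat shock genes, 8 dendritic cell genes and 8 chemotactic receptors. At an unadjusted p under 0.05 these held 3 higher and 4 lower, 0 and 0, 4 and 1, 0 and 4, 3 and 1, 0 and 2, and 0 and 2 genes. Their medians lay between −0.30 and 0.14, against −0.22 over all genes, and all were negative with median scaling, which moved the median of all genes to −0.90. Bhlhe40, a transcription factor of macrophage activation, had the widest gap of them, −2.13 with an adjusted p of 0.0665, and 0.00954 without the weak arrays.

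**Figure D2:**
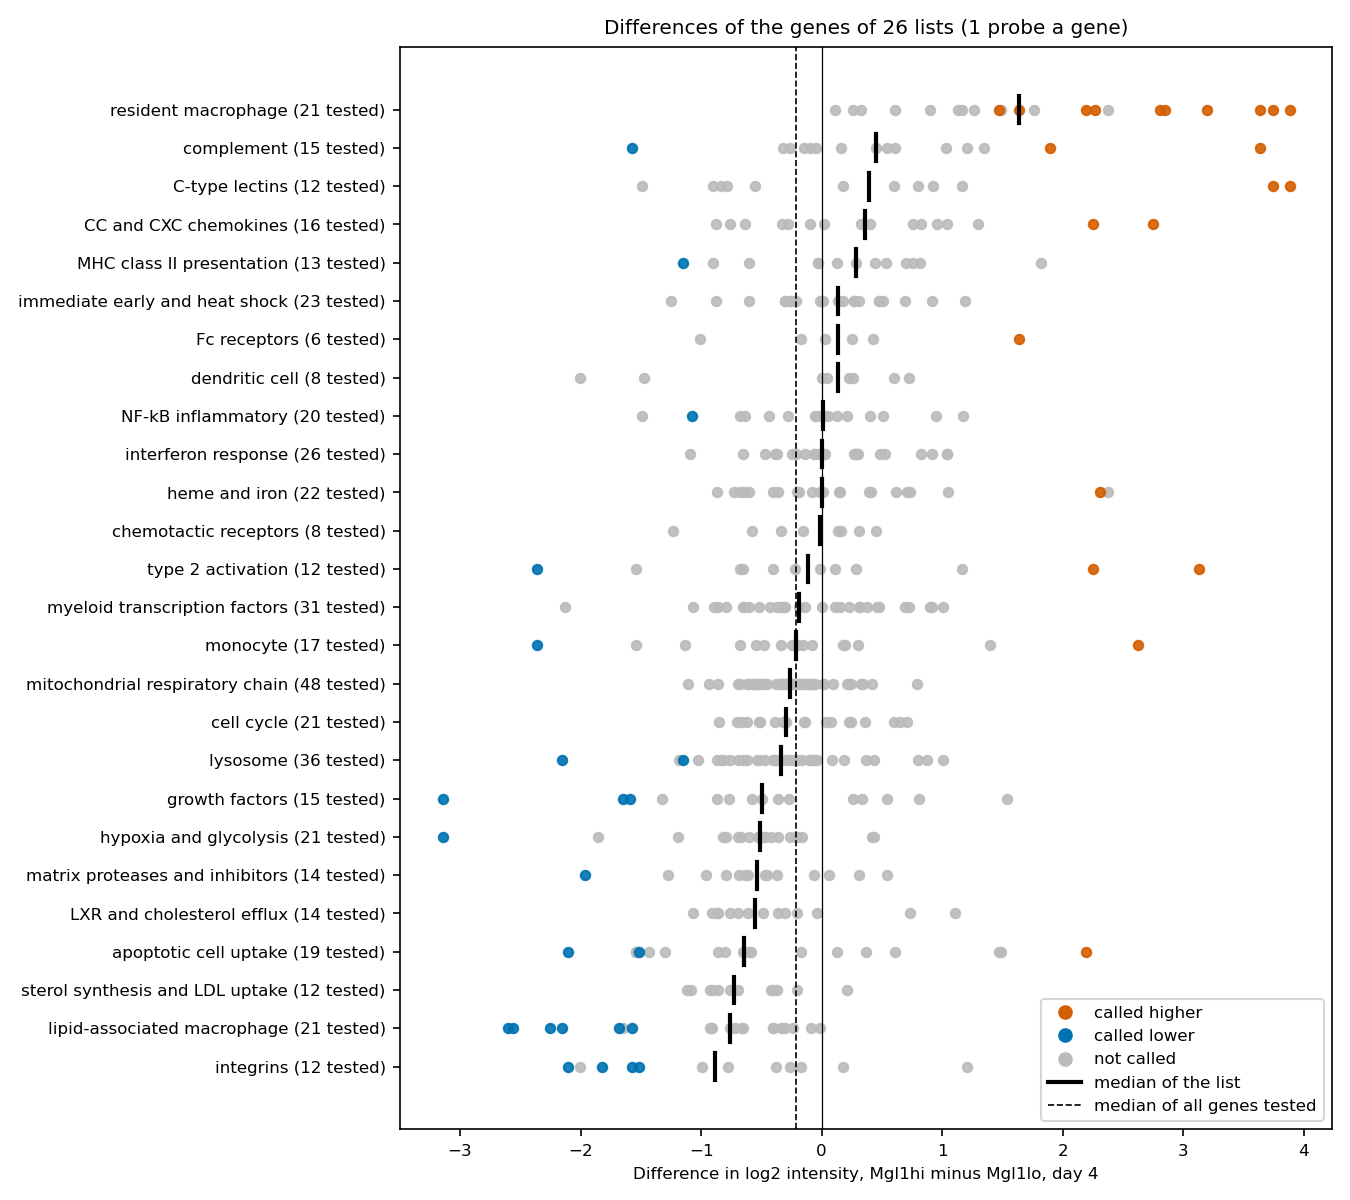
Difference in log2 intensity, Mgl1high minus Mgl1low, for the tested genes of 26 lists (1 point per gene), with called higher genes in orange, called lower genes in blue and uncalled genes in grey. Black ticks are list medians and the dashed line is the median of all genes, −0.22. Resident macrophage genes have a median of 1.63, to the right of the dashed line, and the lists of lipid-associated macrophages and integrins lie to the left.

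Markers of other cell types gave no call in the fit of the 16 day-4 arrays, but few of them could be tested. The detection filter left 3 muscle fibre genes and 1 gene each of myogenic, endothelial, neutrophil and eosinophil cells. It left 0 genes of T and NK, B, mast and erythroid cells, so that no call was possible there. Of 11 general macrophage genes none was called (1 higher and 1 lower at an unadjusted p under 0.05), and their summed linear intensity was 15090 to 17866 in Mgl1high arrays and 18536 to 22222 in Mgl1low arrays. None of 11 fibroblast genes was called (3 higher and 0 lower unadjusted), but their sum was 1487 to 4326 in Mgl1high arrays, against 955 to 2241 in Mgl1low arrays, with a median difference of 0.59. Col1a1, a collagen chain, had 7.75, 10.17, 7.12 and 8.71 in Mgl1high and 6.62, 8.03, 6.23 and 6.62 in Mgl1low macrophages (1.56, adjusted p = 0.0733), highest in both Cx3cr1-/- arrays. Muscle fibre genes summed to 697 to 895 and 448 to 664. The part of such RNA in the higher genes was not tested, and in sorted pools fewer cells of a type and less RNA per cell cannot be told apart. S100a8, of neutrophils, and Cd3e, Cd3g and Cd3d, of T cells, were above background in none of the 8 arrays, and Pecam1, of endothelium, in 1. Other markers of such cells did read above background. Csf3r, of neutrophils, did so in 4 Mgl1high and 4 Mgl1low arrays, Egfl7, of endothelium, in 4 and 2, and Des, of myogenic cells, in 3 and 4. Their differences of 0.39, 0.95 and 0.51 were not called. Cma1, a mast cell protease, was above background in all 4 Mgl1high arrays and in 1 Mgl1low array, and Siglecf, of eosinophils and some macrophages, in 1 and 4, with a difference of −1.08 and an adjusted p of 0.0916.

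The other day-4 cells gave the called genes a frame, by level and without a test. Lyve1, Ccl8 and Gas6 were highest in Mgl1high macrophages, with 5.04 ± 0.15, 5.10 ± 0.24 and 5.19 ± 0.27 in Ly6Chigh monocytes (SD, n = 4) and no more than 5.24 ± 0.80 in F4/80low Ly6Clow cells. Mgl2 and Retnla also had their highest day-4 means in Mgl1high macrophages, at 10.06 ± 0.66 and 10.33 ± 0.56, but F4/80low Ly6Clow cells, at 9.42 ± 0.83 and 8.26 ± 2.49, overlapped them for both genes. Vegfa and Chil3 were highest in Ly6Chigh monocytes, at 10.07 ± 0.26 and 9.84 ± 0.15. Gpnmb and Pdgfa were highest in Mgl1low macrophages, while Ctsk was highest in F4/80low Ly6Clow cells, at 10.08 ± 0.61. Plac8 had 10.13 ± 0.38 in Ly6Chigh monocytes, so that the Mgl1high mean of 8.43 ± 0.88 lay between them and the Mgl1low mean of 5.81 ± 0.40.

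**Figure D3:**
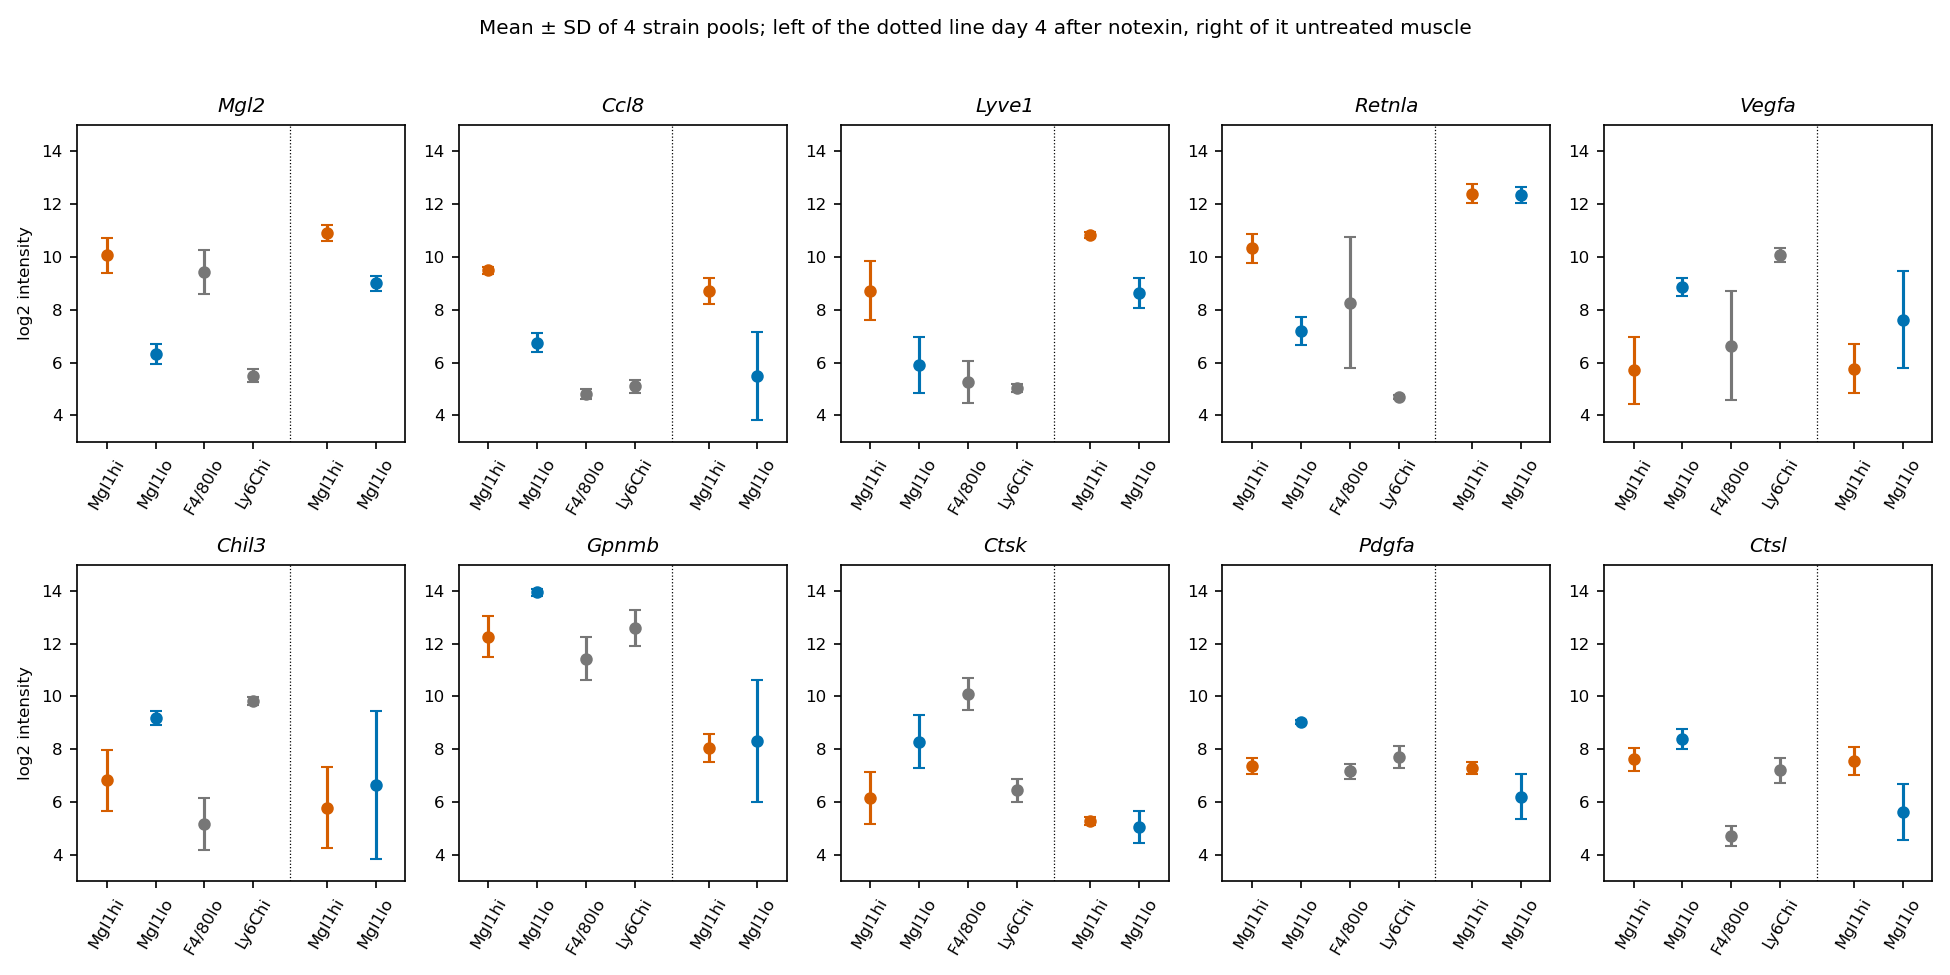
Mean log2 intensity with SD (n = 4 arrays) of 10 genes in Mgl1high, Mgl1low, F4/80low Ly6Clow and Ly6Chigh cells on day 4 and in Mgl1high and Mgl1low macrophages of untreated muscle. Among the day-4 cells Lyve1 and Ccl8 are highest in Mgl1high and Vegfa and Chil3 in Ly6Chigh cells, Lyve1 reads highest of all in untreated Mgl1high cells at 10.83, and Retnla reads above 12 in both untreated populations.

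Whether the gap between the populations was that of muscle at rest was asked with the 8 arrays of untreated muscle. In a fit of 16 arrays with each pool as a block, the difference on day 4 minus the difference in untreated muscle passed for 287 genes upwards (3.44%) and 474 downwards (5.67%) of 8353. Without the pools that held a weak array 307 genes passed, 266 of them in common, and without WT 174 and 222. No gene passed in limma with any 1 of the other three strains left out, where 3556 to 3923 probes had an unadjusted p under 0.05. Values in the next paragraphs come from this fit, whose standard errors differ from those above.

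A first group was higher in Mgl1high cells in both states. Ednrb was higher in Mgl1high cells by 3.20 on day 4 and 3.99 in untreated muscle (standard error 0.43 each), Gas6 by 2.20 and 3.21 (0.32), Lyve1 by 2.81 and 2.18 (0.27) and Ccl8 by 2.75 and 3.23 (0.49). For none of these 4 did the change between the states pass the test, with adjusted p between 0.153 and 0.659. The untreated gap of Ccl8 was uneven, at 0.76 to 4.55 over the strains, with 1 of 4 untreated Mgl1low arrays above background. Cbr2, Chp2, Cp and Nme7 gave shifts of −0.27 to 0.15. Folr2 had 1.47 on day 4 and 2.99 in untreated muscle (0.48), a shift of −1.52 (standard error 0.68) with an adjusted p of 0.149. The collagen chains Col1a1 and Col1a2, of the fibroblast genes, were also higher in Mgl1high cells in both states of this fit. Col1a1 was higher by 1.56 on day 4 (limma, adjusted p = 0.0437) and 2.64 in untreated muscle (0.00201). Col1a2 was higher by 0.94 (0.0386) and 1.94 (4.98e-04). The fibroblast gene Pdgfra did not share this, with 1.07 on day 4 (0.0786) and −0.75 in untreated muscle (0.196), neither called. Muscle fibre genes were uneven. Tnnt3, a troponin chain, was higher by 1.53 on day 4 (limma, adjusted p = 0.0431) and had an uncalled 1.01 in untreated muscle (0.131). Mylpf, a myosin light chain, had an uncalled 0.65 on day 4 (0.177) and was higher by 1.27 in untreated muscle (0.0236). Tnni2, another troponin chain, had 0.14 on day 4 and 0.32 in untreated muscle, neither called. The part of such RNA in the first group was not tested.

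A second group was level in untreated muscle, opened further on day 4 or had an untreated difference below 0. Retnla, with the day-4 values given above, had 12.30, 12.12, 12.28 and 12.91 in Mgl1high and 12.47, 12.62, 11.91 and 12.42 in Mgl1low macrophages of untreated muscle. Both populations read lower on day 4 than in untreated muscle, and the Mgl1low arrays by more. The difference was 3.13 on day 4 and 0.05 in untreated muscle (0.28), a shift of 3.08 (0.40, adjusted p = 0.0125). Mgl2 shifted by 1.83 (0.36, adjusted p = 0.0231), with Mgl1low means of 6.32 ± 0.37 on day 4 and 9.0 ± 0.28 in untreated muscle, and Mgl1high means of 10.06 ± 0.66 and 10.91 ± 0.29. Cd209d shifted by 1.29 (0.34, adjusted p = 0.0421) in the same manner, and Plac8 by 2.67 (0.60, adjusted p = 0.0287). These 4 stayed called without the weak pools. Il6, an inflammatory cytokine, and Ifitm6, of the interferon-induced transmembrane family, changed sign, with differences of 0.95 and 1.40 on day 4 and of −1.69 and −1.20 in untreated muscle (shifts of 2.64 and 2.60, adjusted p = 0.015 and 0.0125).

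The last group had day-4 differences below 0 and untreated differences near 0 or above it. The untreated differences of Ctsk, Itgb5 and Arhgap24 were 0.23, 0.15 and 0.14, none called. Ctsk, Itgb5 and Arhgap24 were near background in both untreated populations, at means of 5.28 ± 0.15, 5.18 ± 0.17 and 5.07 ± 0.20 in Mgl1high and 5.05 ± 0.62, 5.02 ± 0.20 and 4.93 ± 0.15 in Mgl1low macrophages, and their shifts were −2.38, −2.25 and −2.13 (adjusted p = 0.015, 0.0187 and 0.023). Pdgfa, with 6.93 to 7.63 in Mgl1high and 8.96 to 9.11 in Mgl1low macrophages on day 4, had 7.23, 7.37, 6.99 and 7.56 in untreated Mgl1high and 6.93, 6.26, 4.98 and 6.61 in untreated Mgl1low macrophages. Its difference was −1.65 on day 4 and 1.09 in untreated muscle (0.27), of opposite sign, and the shift was −2.74 (0.39, adjusted p = 0.015). Ctsl, Mertk, the receptor for Gas6, and Itga9, an integrin chain, had day-4 differences of −0.76, −0.64 and −0.99, against 1.94, 1.86 and 1.70 in untreated muscle. The untreated differences were called, and the day-4 ones were not (limma, adjusted p = 0.176, 0.16 and 0.0844). The shifts of Ctsl, Mertk and Itga9 were −2.69, −2.50 and −2.69 (adjusted p = 0.0199, 0.0162 and 0.0187). All 7 genes of this group stayed called without the weak pools. One of the untreated Mgl1low arrays, that of Ccl2-/- mice, had 9896 probes above background. It held the lowest untreated Mgl1low value of Pdgfa, Ctsl, Mertk and Itga9, at 4.98, 4.39, 6.37 and 6.24.

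**Figure D4:**
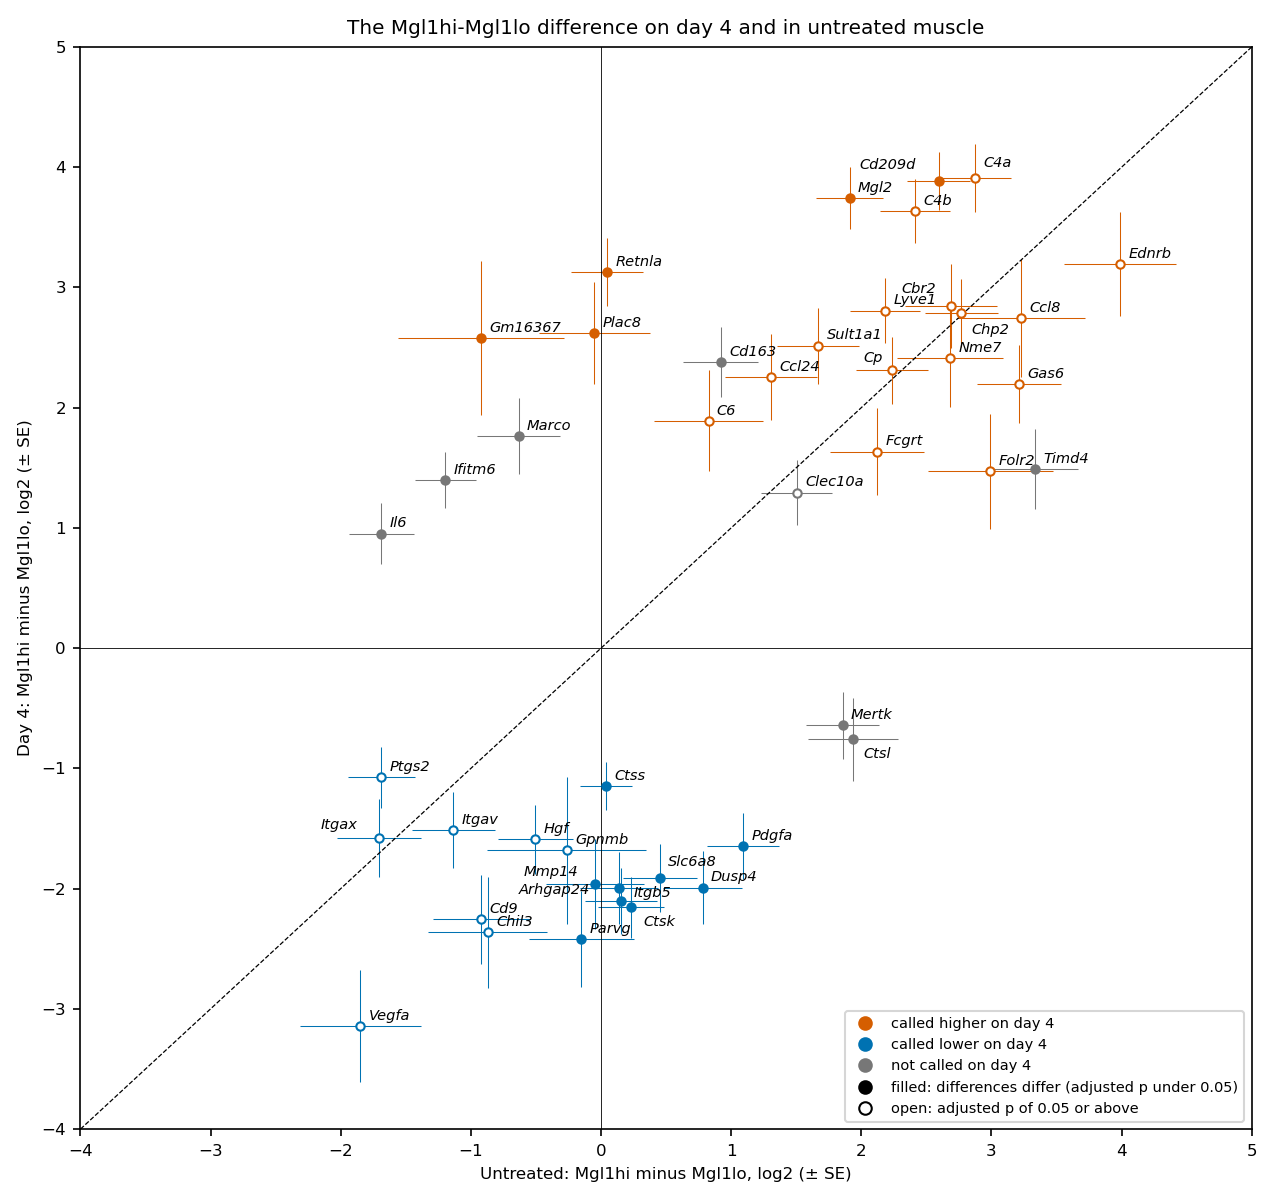
Difference Mgl1high minus Mgl1low in log2 intensity on day 4 (vertical) and in untreated muscle (horizontal) for named genes, with standard errors, where filled points have an adjusted p under 0.05 for the change of the difference. Ednrb, Gas6, Lyve1 and Ccl8 lie in the upper right, Retnla near 0 on the horizontal and above 3 on the vertical axis, and Pdgfa, Ctsl and Mertk in the lower right.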

How the data were processed

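Mononuclear phagocytes were sorted by flow cytometry, and amplified cDNA was hybridised to Illumina WG-6 version 2 arrays. The authors deposited raw probe intensity values and a detection p-value for each probe and array, made in GenomeStudio (no version given in the submitters' processing notes), and a second table of processed intensity values. Those processed values differed from quantile-normalized signals by at most 0.0276 on the log2 scale and were used as an alternative. Probe symbols came from the platform annotation. Of 45281 probes 34885 had 1 symbol, 18 several and 10378 none, and 34807 were matched to RefSeq by gene ID.

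Signals of all 24 arrays were corrected and quantile-normalized with neqc of limma 3.58.1 (R 4.3.3, offset 16). The fit held the 16 day-4 arrays, with population and strain as terms, and the 15320 probes with a detection p under 0.05 in at least 8 of them. A gene was represented by its brightest probe over the 8 Mgl1high and Mgl1low arrays, and p-values were adjusted over all probes. Strain was taken to pair the arrays, since the populations of a strain were sorted from the same pool of mice. Deviations of same-strain arrays from their population means correlated at 0.117 to 0.196 in the 4 strains. The median between different strains was −0.057. It is no separate support, since deviations from a population mean cancel out over the strains. No 2 arrays held identical values. The change of the difference between day 4 and untreated muscle was fitted on 16 arrays with 8 pools as blocks. With 4 arrays a side, precision is set by their number. Each fit was first tested on simulated data.

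Named genes comprise the 15 with the largest called difference in each direction and 1 sign in 4 strains, the genes of the gate, the 4 given markers, and from each of 39 lists up to 6 called genes in each direction and up to 3 uncalled ones. Outside this rule, and chosen after values were seen, are Cx3cr1, Ccl2, C1qa, C1qb, C1qc, Apoe, Igf1, Selenop, Pf4, Arg1, Ctsb, S100a8, Cd3e, Cd3g, Cd3d, Pecam1 and Cma1, given for their known roles, and those marked in the text. The genes compared and the 39 lists were chosen with earlier results of these data known. Alternatives changed the block, the arrays, the normalization, the filter and the variance model.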

Additional observations from a re-analysis of the deposited data

Results flagged for a closer look

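In groups of 4 arrays a lone array stood away from the other three in 6 of the 98 groups examined, where chance gives about 1 in 20. Mgl2 read 11.04 in the Mgl1high array of Cx3cr1-/- Ccl2-/- mice, above the others, and Ccl24 read 6.785 in the Mgl1high array of Ccl2-/- mice, below them. In Mgl1low macrophages the WT array was apart for Syngr1 (7.83, low), Gpnmb (14.16, high) and Itgav (8.048, low), and the Cx3cr1-/- array for Ly6c1 (6.123, high). The other three Gpnmb values share 1 normalized value, so that any other value would stand apart and nothing is read from it.

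For 32 named genes the difference Mgl1high minus Mgl1low on day 4 differed from that in untreated muscle in limma, and 17 of them stayed called without the pools that held a weak array. None of the 32 passed with Cx3cr1-/-, Ccl2-/- or Cx3cr1-/- Ccl2-/- left out, with adjusted p from 0.0528 up to 0.212. The values that follow are the day-4 difference minus the untreated one. Among resident and lectin genes it was 1.289 for Cd209d, 1.833 for Mgl2, 1.459 for Cd163, 2.397 for Marco and −1.843 for Timd4. Timd4 was 3.33 higher in Mgl1high cells of untreated muscle, and on day 4 the gap was 1.49.

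Among secreted and inflammatory genes the value was 3.082 for Retnla, 2.641 for Il6, 1.509 for Il1rn, 1.237 for Ccl6 and −2.741 for Pdgfa. Among lysosomal and lipid genes it was −2.694 for Ctsl, −2.384 for Ctsk, −1.187 for Ctss, −1.415 for Trem2, −1.372 for Nr1h3 and 1.65 for Mitf. The Mitf value rests on 1 probe, with a day-4 difference of 1.01, while a dimmer probe gave −0.78 on day 4, neither called. Uptake and adhesion genes gave −2.497 for Mertk, −2.69 for Itga9, −2.254 for Itgb5, −2.269 for Parvg and −2.133 for Arhgap24. The matrix proteases Mmp14 and Mmp9 gave −1.915 and −2.183. Interferon-induced Isg15 and Ifitm6 gave 1.786 and 2.598, and H2-Eb1, an MHC class II chain, 2.4. The remaining genes were Plac8 at 2.672, Gm16367 at 3.505, Dusp4 at −2.771, Slc6a8 at −2.365, Fth1 at −1.256 and the fibroblast marker Pdgfra at 1.814, which was above background in 3 of 4 Mgl1high and 2 of 4 Mgl1low arrays on day 4.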

How the results depend on the processing

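Of 15320 probes 219 were called between Mgl1high and Mgl1low macrophages on day 4. The count was 41 with no replicate block, 83 and 96 with the 8 arrays alone, with and without the strain block, 1191 without the 3 weak arrays, 1131 with array weights, 359 with no filter, 363 with detection in all 4 arrays of a population and 383 with a variance trend. Leaving out 1 strain gave 14 to 160 probes. With median scaling it was 6815, of which 3.05% were higher, against 55.7% in the 219, as the median difference moved to −0.828 from −0.193. Chosen after seeing the data, leaving out the weak Mgl1high array alone gave 48 and leaving out both weak F4/80low Ly6Clow arrays alone 1804. Of 43 named called genes none changed direction under the 18 alternatives, while 25 lost the call with no replicate block, 25 without the weak Mgl1high array alone, and 16, 23, 33 and 34 with WT, Cx3cr1-/-, Ccl2-/- and Cx3cr1-/- Ccl2-/- left out in turn. Probes for the change between day 4 and untreated muscle numbered 1409, of which 41.6% were positive. They were 541 without the weak pools, 571 with no filter, 8268 with median scaling (3.19% positive, median −1.16) and 0 to 809 with 1 strain left out. Of the values near 0, the Ly6c1 difference on day 4 was −0.20 to 0.13 with 1 strain left out, and the value of Ccl6, day 4 against untreated, was −0.09986 with median scaling, against 1.237 as given above. The causes were not tested. Signal over background limits the lower genes, since 2 of 59 were above background in no Mgl1high array.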

Other observations

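Genes outside the lists also changed the gap between states, in both directions. They were picked after their values were seen and are given as values. Thbd, the thrombin receptor thrombomodulin, had a difference Mgl1high minus Mgl1low of −1.65 on day 4 and 2.77 in untreated muscle (standard error 0.43), and the change was −4.42 (limma, adjusted p = 0.015, and 0.0157 without the weak pools). Slc40a1, the iron exporter ferroportin, had −0.36 on day 4 and 2.91 in untreated muscle. Hpgds, a prostaglandin D synthase, had −0.65 and 2.26, and Rnase4, a secreted ribonuclease, 0.51 and 3.54. In these 4 genes the untreated gap was called, and on day 4 the gap was uncalled or, for Thbd, of the other sign. In the other direction, Zfp575, a zinc finger gene, had 1.99 on day 4 and −2.12 in untreated muscle, Cyp11a1, the cholesterol side-chain cleavage enzyme, 1.72 and −1.92, and Daam2, a formin, 1.82 and −1.56. These changes of 4.11, 3.64 and 3.38 were wider than those of Slc40a1, Rnase4 and Hpgds (−3.27, −3.03 and −2.91). Each of the 7 passed with and without the weak pools. As for all genes of this comparison, none passed with Cx3cr1-/-, Ccl2-/- or Cx3cr1-/- Ccl2-/- left out, where 3556 to 3923 probes had an unadjusted p under 0.05.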
